A study of Mus musculus with 9 samples.

Results

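The 46 genes described here encode the machinery that copies DNA and the regulators that start it at the boundary between the G1 and S phases of the cell cycle. They were taken as a fixed list of symbols and matched to an expression array through the platform annotation, using for each gene the probe set with the highest mean. All 46 were measured, among 19938 named genes, and no filter on low values was set. RNA came from D2.OR cells, a line derived from a mouse mammary tumor and known for cells that spread and then stay dormant for long, in 3D culture. The 9 arrays fall into 3 groups of 3 by sample title: fibrillar collagen I, non-fibrillar collagen I, and Matrigel, an extract of basement membrane. The labels of the Matrigel arrays contradict their titles, since the growth entry of all 3 names non-fibrillar collagen I, and the written design of the study has the collagen forms only. The title of the study places it in the question of whether fibrillar collagen has a part in the protection that pregnancy gives against mammary cancer. Every group is the same cell line, on a matrix named by the titles, and no label gives a genotype, an agent, a time in culture or separate cultures behind the replicates. P-values measure the spread between these arrays, which may be technical. Accessions of the Matrigel arrays are later than those of the other 6, and their batch and their matrix cannot be told apart.

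Before a cell divides, the origin recognition complex, CDC6 and CDT1 load the ring-shaped MCM helicase onto DNA, a step called licensing that geminin blocks once S phase has begun. CDC45 and the GINS complex then turn the loaded helicase on, primase and the DNA polymerases copy both strands behind it, and the clamp PCNA, placed by the clamp loader RFC, holds the polymerases on the template. Most of these genes are transcribed in G1 and S under E2F transcription factors, which the retinoblastoma protein holds back until cyclin E and its kinase release them. Their RNA is therefore low in cells that have left the cycle and is widely read as a measure of proliferation. In RNA from a whole culture, fewer cells in S phase and less of the RNA in each cell cannot be told apart.

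The promoters were searched for motifs. Since most replication genes are transcribed under E2F, an excess of E2F motifs goes with the kind of genes listed and does not bear on the matrices. RefSeq promoter windows on build GRCm38.p6, running from 250 bases before the annotated start to 50 after it, were found for 38 of the 46 genes. Ccne2, Gins1, Gins2, Gmnn, Mcm4, Pole, Prim2 and Rfc2 had no entry. An E2F motif, spelled TTTCCCGC, TTTCGCGC, TTTGCCGC or TTTGGCGC and searched on both strands, lay in a window of 16 of the 38 genes (42.1%), against 704 of the 27025 genes in the table (2.605%) and 744 of its 32851 windows. The CCAAT box, spelled CCAAT, lay in the windows of 24 of the 38 (63.2%), against 41.1% of all genes. A cell cycle homology region, spelled TTTGAA or TTCGAA and known from genes of mitosis, lay in 8 of the 38 (21.1%), against 21.7% of all genes. Shown are the genes with an E2F match that passed a test in a comparison of fibrillar collagen, and Rfc4, the clamp loader gene with the smallest p between the collagens, whose window held no match. Each run covers 200 bases before to 30 after the annotated start, 5′ to 3′ on the strand of the gene, with E2F matches of either strand in capitals.
Mcm6 (chr1:128359676-128359905, - strand): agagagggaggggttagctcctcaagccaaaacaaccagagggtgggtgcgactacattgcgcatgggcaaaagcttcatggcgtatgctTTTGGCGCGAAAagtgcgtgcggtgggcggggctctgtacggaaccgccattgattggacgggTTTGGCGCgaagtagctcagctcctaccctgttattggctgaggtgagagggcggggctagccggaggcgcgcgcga
Mcm7 (chr5:138171854-138172083, - strand): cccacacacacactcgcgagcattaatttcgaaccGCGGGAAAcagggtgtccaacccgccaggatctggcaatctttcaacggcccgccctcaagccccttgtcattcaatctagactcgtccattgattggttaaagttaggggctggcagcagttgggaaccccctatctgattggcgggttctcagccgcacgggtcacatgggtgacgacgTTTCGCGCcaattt
Cdc6 (chr11:98907951-98908180, + strand): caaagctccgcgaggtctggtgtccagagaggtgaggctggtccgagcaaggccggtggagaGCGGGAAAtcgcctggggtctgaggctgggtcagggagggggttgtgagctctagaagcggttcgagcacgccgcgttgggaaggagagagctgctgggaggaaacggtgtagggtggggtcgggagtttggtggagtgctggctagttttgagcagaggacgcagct
Rfc3 (chr5:151651179-151651408, - strand): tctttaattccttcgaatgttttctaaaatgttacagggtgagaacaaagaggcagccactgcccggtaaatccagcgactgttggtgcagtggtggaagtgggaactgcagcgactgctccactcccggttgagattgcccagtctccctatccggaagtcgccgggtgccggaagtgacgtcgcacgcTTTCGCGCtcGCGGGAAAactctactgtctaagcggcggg
Uhrf1 (chr17:56304113-56304342, + strand): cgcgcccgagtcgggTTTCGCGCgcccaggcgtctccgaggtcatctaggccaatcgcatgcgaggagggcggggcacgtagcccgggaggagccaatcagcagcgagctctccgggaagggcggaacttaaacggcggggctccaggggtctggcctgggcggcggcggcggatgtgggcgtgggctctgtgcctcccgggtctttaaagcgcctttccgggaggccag
Pole2 (chr12:69228161-69228390, - strand): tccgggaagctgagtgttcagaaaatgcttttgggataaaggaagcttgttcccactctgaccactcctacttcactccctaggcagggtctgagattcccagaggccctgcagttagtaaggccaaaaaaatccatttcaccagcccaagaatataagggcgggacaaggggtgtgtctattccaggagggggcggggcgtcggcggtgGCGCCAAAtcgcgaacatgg
Rfc4 (chr16:23127701-23127930, - strand): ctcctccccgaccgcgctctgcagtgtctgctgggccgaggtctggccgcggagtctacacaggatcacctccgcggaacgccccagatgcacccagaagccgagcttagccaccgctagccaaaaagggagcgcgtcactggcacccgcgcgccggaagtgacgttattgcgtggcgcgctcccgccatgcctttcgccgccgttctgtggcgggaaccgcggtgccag
In Mcm6 the first pair of matches, one on each strand, overlaps and reads as a single run of capitals. Pole2 and Mcm7 have a match just after the start, and Rfc3 has one that begins at it. A match describes the letters in the window and shows no binding.

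Levels are log2 RMA values, on which 1 unit is a doubling, and values of different genes are not set against each other because probe sets differ in brightness. Array medians over all probe sets ran from 5.98 to 6.05, and Pearson's r across probe sets was 0.994 to 0.996 within groups and 0.992 to 0.996 between groups. Of 7 epithelial markers, Krt8 averaged 13.26 in fibrillar, 13.27 in non-fibrillar collagen and 13.13 in Matrigel, while the keratin Krt19 (5.32 to 5.43) and the adhesion protein Epcam (5.94 to 6.21) were near or below the array median. Krt7, a keratin of simple epithelia, averaged 10.37 in fibrillar, 10.67 in non-fibrillar collagen and 9.47 in Matrigel and differed in all 3 comparisons. Among markers of other cell types, 1 of 5 macrophage and 1 of 5 fibroblast markers differed between the collagens. Cd14 was lower in fibrillar collagen (7.63 against 7.99), and Pdgfra, the PDGF receptor of mesenchymal cells, was higher (10.92 against 10.24), with 11.25 in Matrigel. Per array, the 5 fibroblast markers averaged 6.98 to 7.10 in fibrillar, 6.80 to 6.95 in non-fibrillar collagen and 7.06 to 7.20 in Matrigel. Of these, Pdgfrb (group means 7.678 to 8.005) and Col1a1 (8.637 to 8.705) lay, like Pdgfra, above the array medians in every group. Dcn (4.37 to 4.45) and Lum (3.24 to 3.36) stayed low in all groups. The immune markers Ptprc (4.88 to 5.05) and Adgre1 (3.95 to 4.04) were low in all groups as well. Against Matrigel, 4 of 7 epithelial markers were higher in non-fibrillar collagen (Krt7, Krt18, Epcam and Cldn7) and 2 in fibrillar collagen (Krt7 and Krt18). The adipocyte marker Fabp4 was lower than in Matrigel in fibrillar (-0.81 log2 units) and non-fibrillar collagen (-1.02), and in non-fibrillar collagen the endothelial marker Kdr (-0.47) and Pdgfra (-1.01) were lower and Cd14 (0.28) higher than in Matrigel. The 3 lymphocyte markers passed in no comparison. The part of these markers in the results below was not tested.

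Most of the DNA replication genes were highest in non-fibrillar collagen, intermediate in fibrillar collagen and lowest in Matrigel. This order of the group means held for 35 of the 46 genes, and for 17.9% of all genes tested. In 9 genes all 3 groups stood apart in that order without overlap, which 1.51% of all genes did: Mcm2, Mcm6, Mcm7, Cdc45, Rfc5, Rrm1, Rpa1, Ccne1 and Chaf1b. The mean of the 46 genes, set against its own mean over all 9 arrays, was 0.049, -0.072 and -0.042 log2 units in fibrillar replicates 1, 2 and 3. It was 0.174, 0.165 and 0.156 in the non-fibrillar arrays and -0.101, -0.164 and -0.165 in the Matrigel arrays. No array of one group reached the range of another, and the fibrillar arrays varied most (SD 0.063, against 0.009 in non-fibrillar collagen and 0.037 in Matrigel, n = 3 each). Fibrillar replicate 1 was the highest of its group for 38 of the 46 genes and replicate 2 the lowest for 30. Replicate 1 was also most often the highest in non-fibrillar collagen (20 genes) and in Matrigel (26 genes).

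**Figure D1:**
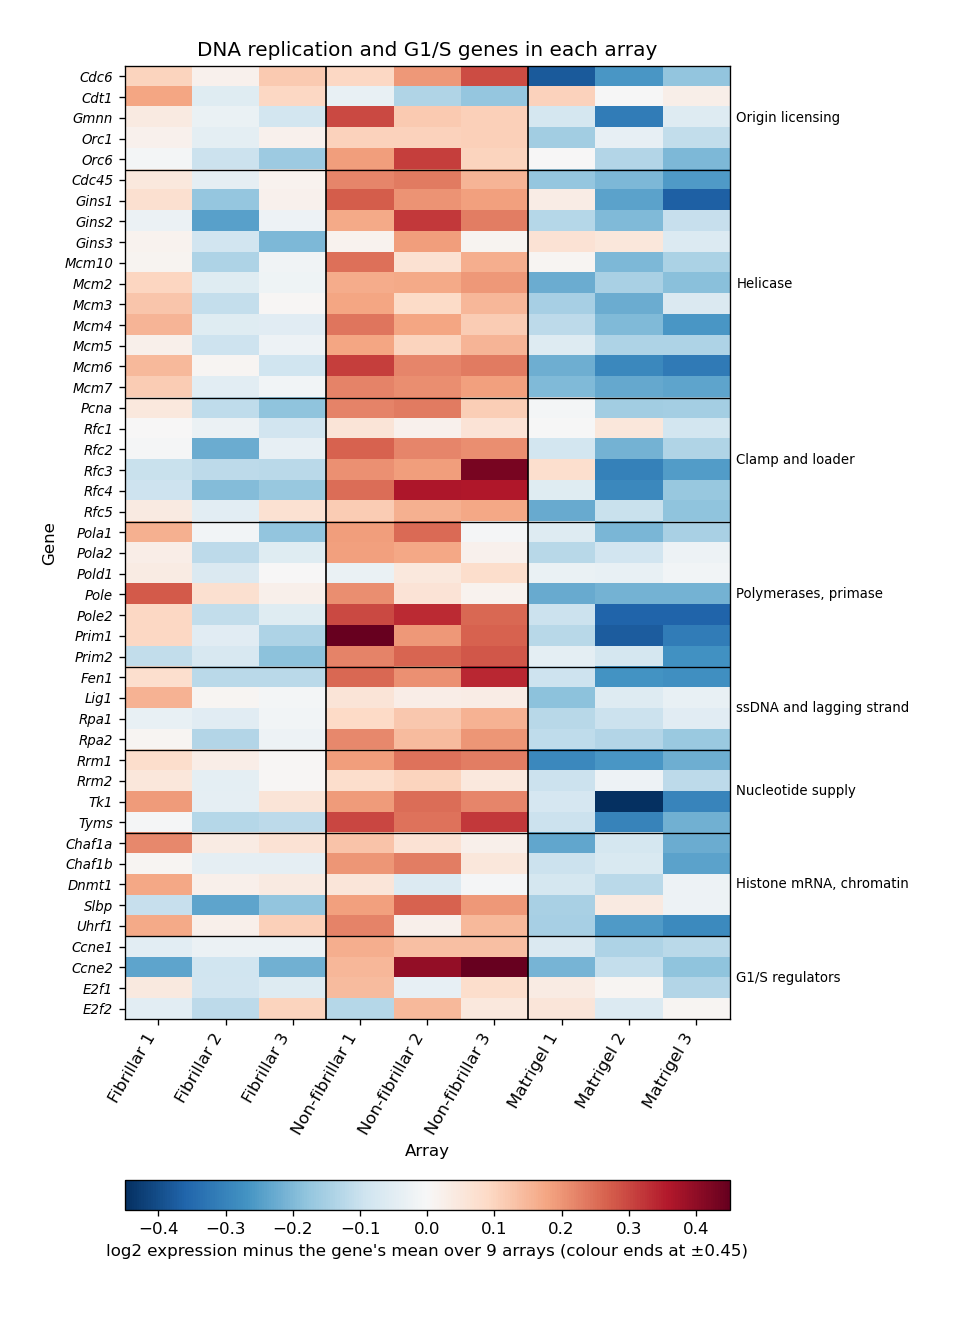
Each row is a gene, each column an array, and colour gives the log2 value minus the gene's mean over the 9 arrays, with genes grouped by role. Most rows are red in the 3 non-fibrillar arrays, pale in the fibrillar arrays and blue in the Matrigel arrays. Cdt1 has its lowest mean in the non-fibrillar arrays.

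The question of the stated design is how fibrillar collagen differs from the non-fibrillar form. Cells in fibrillar collagen had lower levels of 14 of the 46 genes and higher levels of 0 (limma, adjusted p under 0.05), beside a background of 6.4% of all genes called, 3.69% lower and 2.71% higher. The decreases were modest, from 1.13-fold in Ccne1 to 1.44-fold in Ccne2, and the median difference over the 46 genes was -0.18 log2 units, against 0.0080 over all genes. In 41 of the 46 the fibrillar mean was below the non-fibrillar mean. The 2 groups did not overlap in 29 genes, all lower in fibrillar collagen, where 13.6% of all genes were apart in that direction. Blocking on replicate number gave 13 calls, all lower, of which 9 were among the 14, and 1285 calls over all genes.

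Against Matrigel, fibrillar collagen had higher levels of 8 of the 46 genes and lower levels of 0, with 3.82% of all genes called, 1.45% higher and 2.37% lower. Among all called genes 37.9% were higher in the deposited scaling. After quantile normalization was run again 50% of 834 were higher, and 11 of the 46 passed, all higher. The median over the 46 genes was 0.11 log2 units, against 0.0028 over all genes, and 17 genes were higher without overlap (background 9.05%).

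Non-fibrillar collagen differed most from Matrigel. Here 37 of the 46 genes were higher and 0 lower, against 13.8% of all genes called, 6.75% higher and 7.07% lower. Folds of the called genes ran from 1.11 in Rrm2 to 1.49 in Prim1, the median was 0.32 log2 units (0.00061 over all genes), and 39 genes were higher without overlap (background 14.4%). The comparisons share arrays: each group serves in 2 of the 3. Cdc45 and Rrm1 alone passed in all 3 comparisons (0.196% of all genes did so in these directions), and 9 genes passed in none: Cdt1, Gins3, Rfc1, Pola1, Pold1, Lig1, Dnmt1, E2f1 and E2f2.

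**Figure D2:**
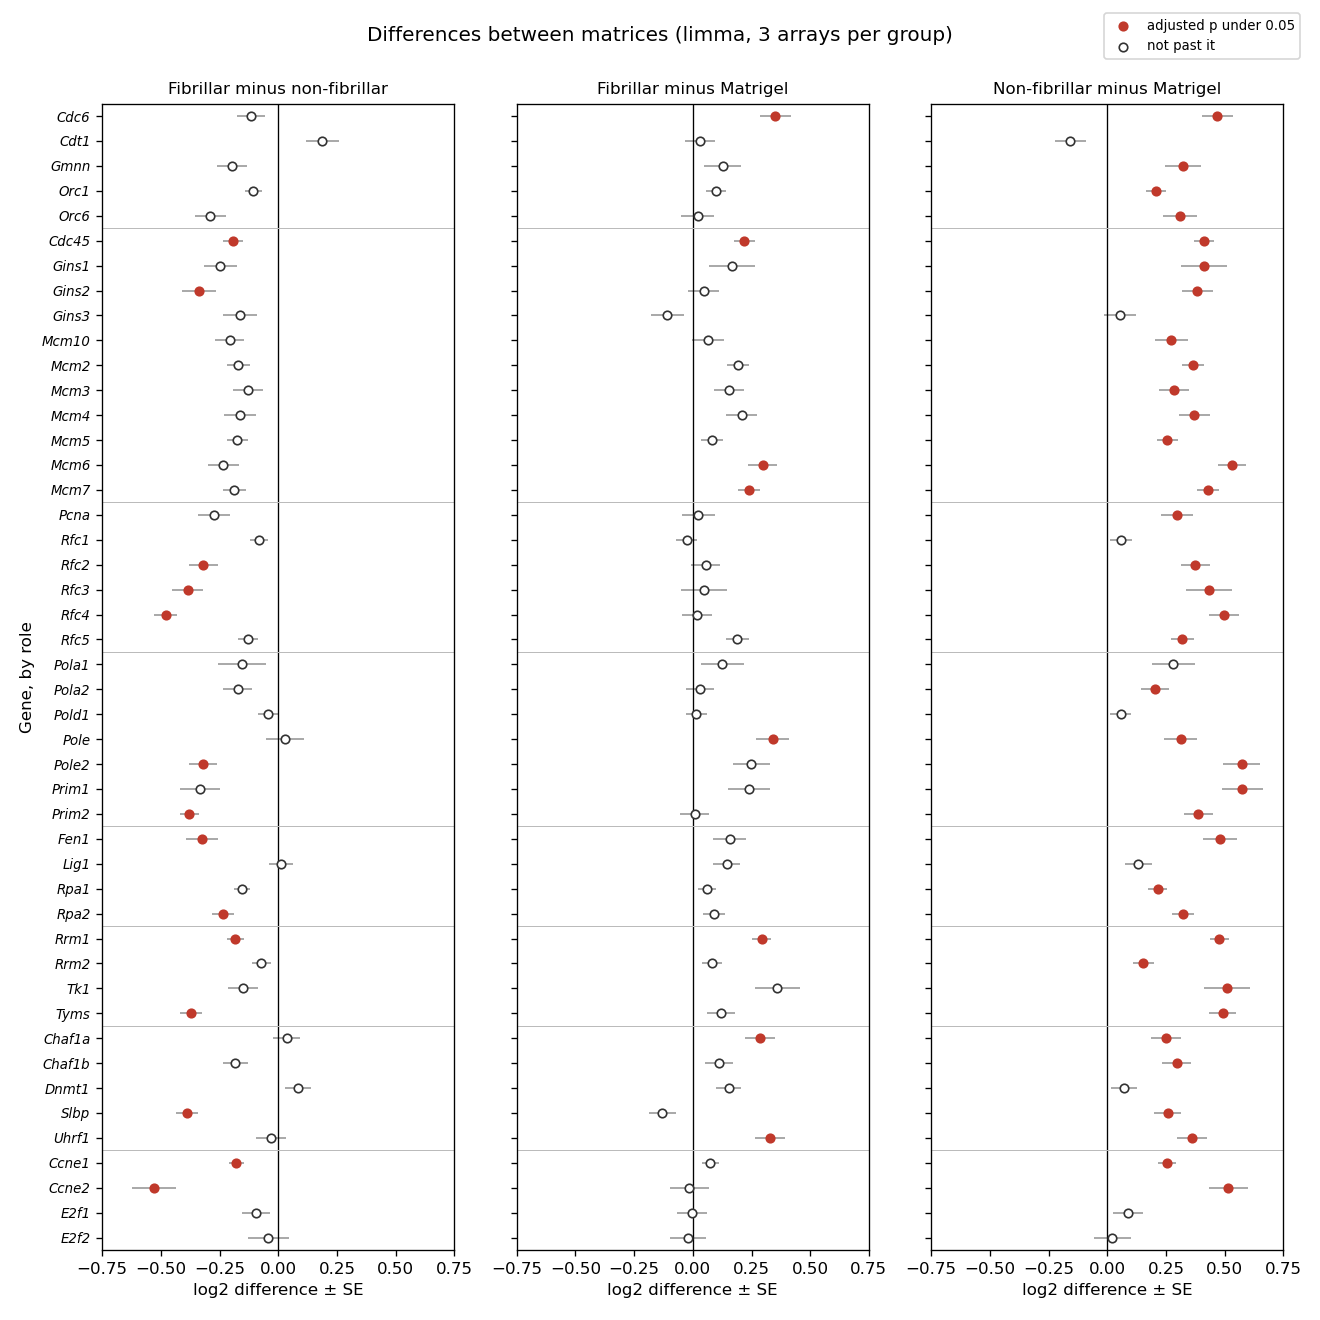
Points give the log2 difference of each gene in the 3 comparisons with limma's standard error as bars (3 arrays per group), filled where adjusted p was under 0.05. Filled points lie left of 0 in fibrillar against non-fibrillar collagen and right of 0 in both comparisons with Matrigel.

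Licensing genes were higher in non-fibrillar collagen than in Matrigel, with the exception of Cdt1. Of the 5, 0 passed in fibrillar against non-fibrillar collagen (limma, 4 at an unadjusted p under 0.05), 1 was higher in fibrillar collagen than in Matrigel and 4 were higher in non-fibrillar collagen than in Matrigel. Cdc6, the ATPase that helps load the helicase, measured 7.01, 6.93 and 7.03 in fibrillar collagen, 7.01, 7.11 and 7.21 in non-fibrillar collagen and 6.53, 6.65 and 6.74 in Matrigel. Both collagen groups lay above every Matrigel array and overlapped each other. It was 1.28-fold higher in fibrillar collagen than in Matrigel (log2 difference 0.35 ± 0.066 SE, adjusted p = 0.019) and 1.38-fold higher in non-fibrillar collagen (log2 difference 0.47 ± 0.066 SE, adjusted p = 0.0014), and its difference between the collagens was -0.12 ± 0.060 (adjusted p = 0.324). Orc6, a subunit of the origin recognition complex, had 10.55, 10.46 and 10.40 in fibrillar collagen, 10.75, 10.87 and 10.66 in non-fibrillar collagen and 10.56, 10.43 and 10.36 in Matrigel. The non-fibrillar arrays were the 3 highest, at -0.29 ± 0.067 for fibrillar against non-fibrillar collagen, where adjusted p was 0.055 and 0.049 with replicate number as a block. Its fibrillar and Matrigel arrays overlapped.

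Orc1, another subunit, measured 6.87, 6.81 and 6.87 in fibrillar collagen, 6.96, 6.96 and 6.96 in non-fibrillar collagen and 6.70, 6.82 and 6.74 in Matrigel. Gmnn, which encodes the licensing inhibitor geminin, measured 6.45, 6.38 and 6.33 in fibrillar collagen, 6.71, 6.53 and 6.52 in non-fibrillar collagen and 6.33, 6.10 and 6.35 in Matrigel. In both genes the non-fibrillar arrays lay above all others, while fibrillar and Matrigel arrays overlapped. Both were higher in non-fibrillar collagen than in Matrigel, by 0.21 ± 0.043 and 0.32 ± 0.078 log2 units (adjusted p = 0.011 and 0.021). Cdt1 measured 9.16, 8.92 and 9.07 in fibrillar collagen, 8.94, 8.84 and 8.80 in non-fibrillar collagen and 9.08, 8.98 and 9.01 in Matrigel. Every non-fibrillar array was below every Matrigel array, and its means ran fibrillar, Matrigel, non-fibrillar from high to low. Differences of 0.19 ± 0.070 log2 units between the collagens (adjusted p = 0.186) and -0.16 ± 0.065 for non-fibrillar collagen against Matrigel (adjusted p = 0.158) did not pass. CDT1 is the licensing factor that cells destroy in S phase, and geminin binds and blocks it.

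Most helicase genes were higher in non-fibrillar collagen than in Matrigel. Of 11 genes for the MCM ring, its activators CDC45 and GINS and the initiation factor MCM10, 2 were lower in fibrillar than non-fibrillar collagen, 3 were higher in fibrillar collagen than in Matrigel and 10 were higher in non-fibrillar collagen than in Matrigel. All 11 had a lower mean in fibrillar than in non-fibrillar collagen. Cdc45, which joins the ring to form the active helicase, measured 8.14, 8.05 and 8.11 in fibrillar collagen, 8.31, 8.33 and 8.25 in non-fibrillar collagen and 7.92, 7.89 and 7.84 in Matrigel. The 3 groups stood apart, with fibrillar collagen between the others. Cdc45 was 1.14-fold lower in fibrillar than non-fibrillar collagen (log2 difference -0.19 ± 0.042 SE, adjusted p = 0.047, and 0.073 with the replicate block) and 1.16-fold higher than in Matrigel (log2 difference 0.22 ± 0.044 SE, adjusted p = 0.025). Gins2, a GINS subunit, had 7.76, 7.55 and 7.77 in fibrillar collagen, 7.96, 8.11 and 8.02 in non-fibrillar collagen and 7.66, 7.59 and 7.68 in Matrigel. Its fibrillar and Matrigel arrays overlapped below all non-fibrillar arrays, and it was 1.26-fold lower in fibrillar than non-fibrillar collagen (log2 difference -0.34 ± 0.073 SE, adjusted p = 0.048, and 0.082 with the block).

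Of the 6 ring subunits Mcm2 to Mcm7, each was higher in non-fibrillar collagen than in Matrigel, by 0.26 (Mcm5) to 0.53 log2 units (Mcm6). Mcm6 measured 8.68, 8.54 and 8.44 in fibrillar collagen, 8.84, 8.75 and 8.77 in non-fibrillar collagen and 8.31, 8.24 and 8.21 in Matrigel. Again the 3 groups did not overlap. It was 1.23-fold higher in fibrillar collagen than in Matrigel (log2 difference 0.30 ± 0.061 SE, adjusted p = 0.028) and 1.45-fold higher in non-fibrillar collagen than in Matrigel (log2 difference 0.53 ± 0.061 SE, adjusted p = 0.00048). Mcm7 had 9.72, 9.56 and 9.59 in fibrillar collagen, 9.83, 9.82 and 9.79 in non-fibrillar collagen and 9.41, 9.38 and 9.37 in Matrigel. It too was separated by group and 1.18-fold higher in fibrillar collagen than in Matrigel (log2 difference 0.24 ± 0.047 SE, adjusted p = 0.023). Mcm2 had 9.47, 9.32 and 9.35 in fibrillar collagen, 9.54, 9.54 and 9.57 in non-fibrillar collagen and 9.15, 9.23 and 9.18 in Matrigel. Its groups were likewise apart, and it was 1.29-fold higher in non-fibrillar collagen than in Matrigel (log2 difference 0.36 ± 0.047 SE, adjusted p = 0.00095). Between the collagens none of the 6 passed, with differences of -0.13 (Mcm3) to -0.23 (Mcm6) and adjusted p of 0.073 or more. Gins1 and Mcm10 were higher in non-fibrillar collagen than in Matrigel (0.41 ± 0.098 and 0.27 ± 0.069), and Mcm10 was at -0.21 ± 0.062 between the collagens (adjusted p = 0.113, and 0.047 with the block). Gins3 had overlapping groups in all 3 comparisons.

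Among the clamp and its loader, Rfc2, Rfc3 and Rfc4 were lower in fibrillar than non-fibrillar collagen. Of the clamp gene and the 5 RFC genes, 3 were lower in fibrillar than non-fibrillar collagen, 0 passed in fibrillar collagen against Matrigel (1 at an unadjusted p under 0.05), and 5 were higher in non-fibrillar collagen than in Matrigel. Rfc4 measured 9.64, 9.53 and 9.56 in fibrillar collagen, 9.98, 10.10 and 10.09 in non-fibrillar collagen and 9.68, 9.44 and 9.56 in Matrigel. Every non-fibrillar array exceeded every other, while fibrillar and Matrigel arrays overlapped. The level was 1.39-fold lower in fibrillar than non-fibrillar collagen (log2 difference -0.48 ± 0.049 SE, adjusted p = 0.0071), whereas the difference of fibrillar collagen from Matrigel was 0.02 ± 0.064 (adjusted p = 0.913). Rfc3 had 8.62, 8.60 and 8.60 in fibrillar collagen, 8.92, 8.91 and 9.14 in non-fibrillar collagen and 8.79, 8.41 and 8.46 in Matrigel. The fibrillar arrays lay close to each other and below all non-fibrillar arrays, and the Matrigel arrays spread on both sides of them. It was 1.31-fold lower in fibrillar than non-fibrillar collagen (log2 difference -0.39 ± 0.067 SE, adjusted p = 0.027).

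Rfc2 measured 7.59, 7.38 and 7.56 in fibrillar collagen, 7.87, 7.82 and 7.81 in non-fibrillar collagen and 7.52, 7.39 and 7.46 in Matrigel. Non-fibrillar arrays were again the 3 highest, and fibrillar collagen was 1.25-fold lower (log2 difference -0.32 ± 0.062 SE, adjusted p = 0.036). These 3 genes encode small subunits of the loader. The remaining small subunit, Rfc5, had 9.94, 9.85 and 9.96 in fibrillar collagen, 10.01, 10.06 and 10.07 in non-fibrillar collagen and 9.67, 9.80 and 9.71 in Matrigel. Its 3 groups were apart. It was higher in non-fibrillar collagen than in Matrigel (log2 difference 0.32 ± 0.048 SE, adjusted p = 0.0022) and stood at -0.13 ± 0.043 between the collagens (adjusted p = 0.145). The large subunit, Rfc1, was at -0.08 ± 0.038 (adjusted p = 0.27). The clamp itself, Pcna, had 11.67, 11.51 and 11.44 in fibrillar collagen, 11.84, 11.85 and 11.73 in non-fibrillar collagen and 11.61, 11.46 and 11.47 in Matrigel. All fibrillar arrays were below all non-fibrillar arrays, by -0.27 ± 0.068 log2 units, with adjusted p = 0.069 and 0.046 with the replicate block. A second Pcna probe set differed by -0.27.

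**Figure D3:**
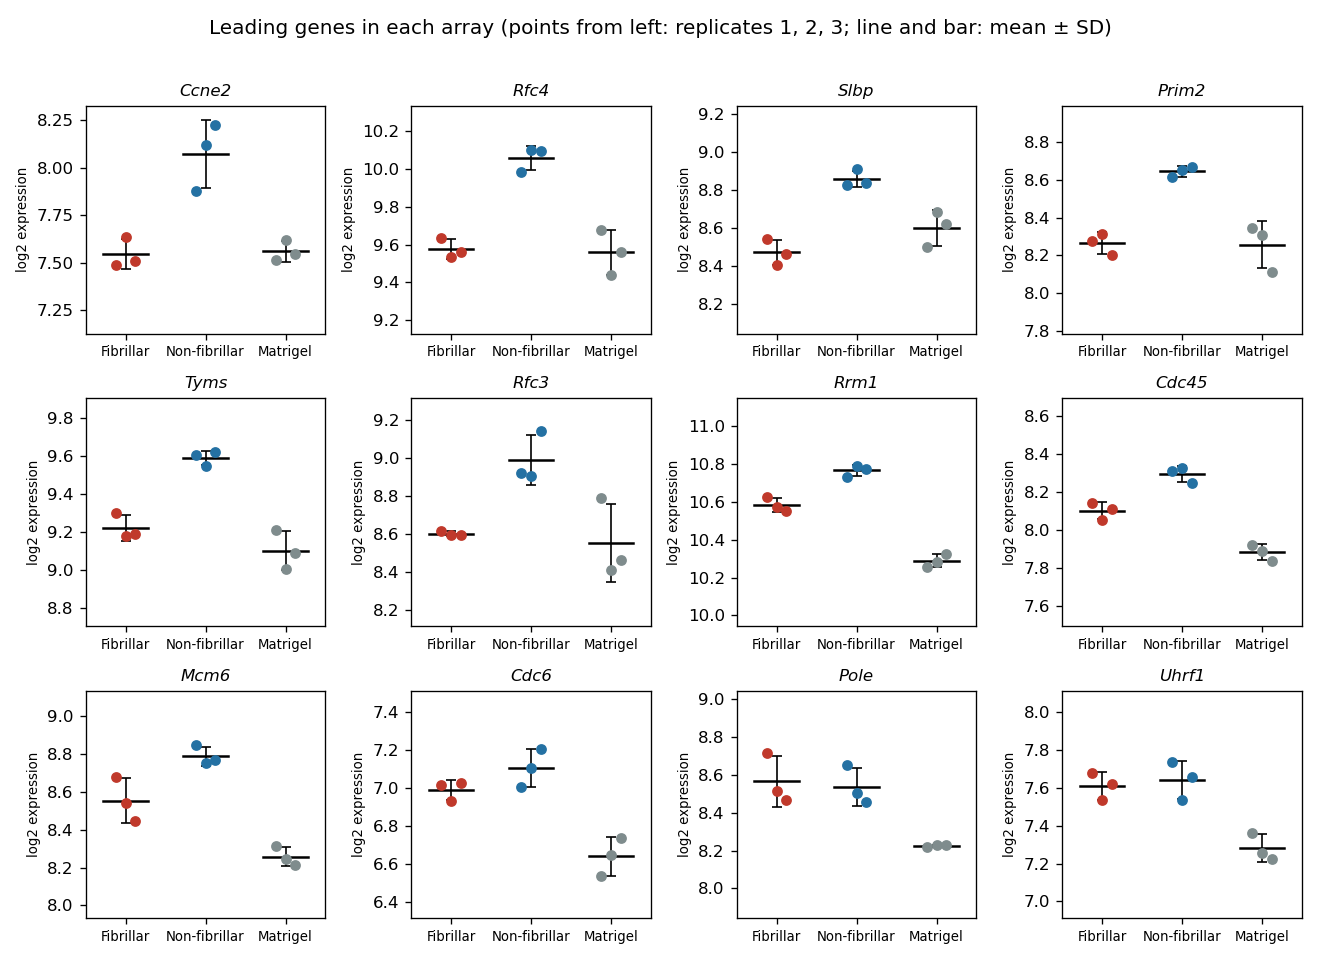
Points are the log2 values of each array for 12 genes, ordered left to right as fibrillar, non-fibrillar and Matrigel, with mean and SD (n = 3) and the same height of axis, 1.2 log2 units, in every panel. Rfc4, Prim2 and Ccne2 have fibrillar arrays level with Matrigel, Rrm1, Cdc45 and Mcm6 have 3 separate steps, and Pole and Uhrf1 have fibrillar arrays level with non-fibrillar collagen.

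Polymerase and primase genes differed in which matrix stood apart. Of 7, 2 were lower in fibrillar than non-fibrillar collagen, 1 was higher in fibrillar collagen than in Matrigel and 5 were higher in non-fibrillar collagen than in Matrigel. Prim2, the large subunit of primase, measured 8.28, 8.31 and 8.20 in fibrillar collagen, 8.61, 8.65 and 8.67 in non-fibrillar collagen and 8.34, 8.31 and 8.11 in Matrigel. Fibrillar arrays lay within the Matrigel range and below all non-fibrillar arrays, and the level was 1.30-fold lower in fibrillar than non-fibrillar collagen (log2 difference -0.38 ± 0.042 SE, adjusted p = 0.0091). Pole2, an accessory subunit of polymerase epsilon, had 8.61, 8.41 and 8.46 in fibrillar collagen, 8.82, 8.86 and 8.78 in non-fibrillar collagen and 8.42, 8.16 and 8.16 in Matrigel. Non-fibrillar arrays were separate from both other groups, which overlapped slightly. It was 1.25-fold lower in fibrillar than non-fibrillar collagen (log2 difference -0.32 ± 0.060 SE, adjusted p = 0.031) and 1.49-fold higher in non-fibrillar collagen than in Matrigel (log2 difference 0.57 ± 0.078 SE, adjusted p = 0.0012).

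Pole, the catalytic subunit of the same polymerase, gave another pattern, with 8.72, 8.51 and 8.47 in fibrillar collagen, 8.65, 8.50 and 8.46 in non-fibrillar collagen and 8.22, 8.23 and 8.23 in Matrigel. The collagen groups overlapped and every array of both exceeded every Matrigel array. It was 1.27-fold higher in fibrillar collagen than in Matrigel (log2 difference 0.34 ± 0.071 SE, adjusted p = 0.029), with a difference of 0.03 ± 0.081 between the collagens (adjusted p = 0.871). Prim1, the catalytic subunit of primase, measured 7.37, 7.22 and 7.14 in fibrillar collagen, 7.72, 7.47 and 7.54 in non-fibrillar collagen and 7.15, 6.90 and 6.96 in Matrigel. It was 1.49-fold higher in non-fibrillar collagen than in Matrigel (log2 difference 0.57 ± 0.088 SE, adjusted p = 0.0023) and at -0.33 ± 0.084 between the collagens (adjusted p = 0.071, and 0.03 with the replicate block). Pola2, a subunit of polymerase alpha, was higher in non-fibrillar collagen than in Matrigel (log2 difference 0.20 ± 0.059 SE, adjusted p = 0.048, and 0.063 with the block). Its catalytic partner Pola1 and the polymerase delta subunit Pold1 passed in none.

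Genes that bind single strands and finish the lagging strand numbered 4. Of these, 2 were lower in fibrillar than non-fibrillar collagen, 0 passed in fibrillar collagen against Matrigel (1 at an unadjusted p under 0.05), and 3 were higher in non-fibrillar collagen than in Matrigel. Fen1, the nuclease that trims flaps between the fragments of the lagging strand, had 7.39, 7.19 and 7.19 in fibrillar collagen, 7.57, 7.52 and 7.65 in non-fibrillar collagen and 7.22, 7.04 and 7.04 in Matrigel. Its non-fibrillar arrays stood above the others, and it was 1.25-fold lower in fibrillar than non-fibrillar collagen (log2 difference -0.32 ± 0.068 SE, adjusted p = 0.043, and 0.054 with the block). Rpa2, a subunit of the protein that coats single-stranded DNA, measured 7.93, 7.79 and 7.90 in fibrillar collagen, 8.14, 8.06 and 8.12 in non-fibrillar collagen and 7.81, 7.79 and 7.76 in Matrigel. Fibrillar arrays lay below all non-fibrillar arrays by -0.24 ± 0.049 log2 units (1.18-fold, adjusted p = 0.042). Its partner Rpa1 had 8.67, 8.66 and 8.69 in fibrillar collagen, 8.80, 8.82 and 8.86 in non-fibrillar collagen and 8.58, 8.61 and 8.65 in Matrigel. Its 3 groups were narrow and apart, and it was 1.16-fold higher in non-fibrillar collagen than in Matrigel (log2 difference 0.21 ± 0.039 SE, adjusted p = 0.0057), with adjusted p = 0.055 between the collagens. The ligase gene Lig1 was above Matrigel in every array of both collagens, yet its differences of 0.14 ± 0.057 and 0.13 ± 0.057 did not pass (adjusted p = 0.217 and 0.175).

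All 4 genes of nucleotide supply were higher in non-fibrillar collagen than in Matrigel. In fibrillar collagen 2 were lower than in non-fibrillar collagen and 1 was higher than in Matrigel. Rrm1, the large subunit of ribonucleotide reductase, which makes the building blocks of DNA, measured 10.62, 10.57 and 10.55 in fibrillar collagen, 10.73, 10.79 and 10.77 in non-fibrillar collagen and 10.26, 10.28 and 10.32 in Matrigel. Its 3 groups were clearly apart. It was 1.14-fold lower in fibrillar than non-fibrillar collagen (log2 difference -0.18 ± 0.038 SE, adjusted p = 0.042, and 0.076 with the block), 1.23-fold higher in fibrillar collagen than in Matrigel (log2 difference 0.29 ± 0.040 SE, adjusted p = 0.0044) and 1.39-fold higher in non-fibrillar collagen than in Matrigel (log2 difference 0.48 ± 0.040 SE, adjusted p = 8.7e-05). Tyms, thymidylate synthase, had 9.30, 9.18 and 9.19 in fibrillar collagen, 9.60, 9.55 and 9.62 in non-fibrillar collagen and 9.21, 9.01 and 9.09 in Matrigel. Fibrillar and Matrigel arrays overlapped below the non-fibrillar arrays, and it was 1.29-fold lower in fibrillar than non-fibrillar collagen (log2 difference -0.37 ± 0.047 SE, adjusted p = 0.012).

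Tk1, the thymidine kinase of dividing cells, measured 9.16, 8.93 and 9.02 in fibrillar collagen, 9.16, 9.22 and 9.19 in non-fibrillar collagen and 8.89, 8.47 and 8.67 in Matrigel. Both collagens lay above Matrigel. The difference was 0.36 ± 0.097 log2 units in fibrillar collagen (adjusted p = 0.076, and 0.044 with the replicate block). It was 0.51 ± 0.097 in non-fibrillar collagen (adjusted p = 0.0068). The Matrigel arrays of this gene had a wide spread. Rrm2, the small subunit of ribonucleotide reductase, had 10.18, 10.09 and 10.14 in fibrillar collagen, 10.21, 10.23 and 10.18 in non-fibrillar collagen and 10.04, 10.11 and 10.01 in Matrigel. Fibrillar arrays overlapped both other groups. The difference was 0.15 ± 0.044 for non-fibrillar collagen against Matrigel (adjusted p = 0.044, and 0.056 with the replicate block).

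Genes of histone supply and chromatin copying held both extremes. Of 5, 1 was lower in fibrillar than non-fibrillar collagen, 2 were higher in fibrillar collagen than in Matrigel and 4 were higher in non-fibrillar collagen than in Matrigel. Slbp, which binds and stabilizes histone mRNA, measured 8.54, 8.41 and 8.46 in fibrillar collagen, 8.83, 8.91 and 8.84 in non-fibrillar collagen and 8.50, 8.68 and 8.62 in Matrigel. The fibrillar mean was the lowest of the 3, below all non-fibrillar arrays, and overlapped Matrigel. It was 1.31-fold lower in fibrillar than non-fibrillar collagen (log2 difference -0.39 ± 0.047 SE, adjusted p = 0.011), and -0.13 ± 0.057 against Matrigel (adjusted p = 0.27). A second Slbp probe set differed by -0.32 between the collagens and by 0.39 between non-fibrillar collagen and Matrigel, and it was 0.07 log2 units higher in fibrillar collagen than in Matrigel, the opposite sign to the first probe set. Uhrf1, which guides the maintenance methylase to newly copied DNA, had 7.68, 7.53 and 7.62 in fibrillar collagen, 7.73, 7.53 and 7.66 in non-fibrillar collagen and 7.36, 7.26 and 7.23 in Matrigel. Collagen groups overlapped, and all their arrays exceeded all Matrigel arrays.

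Uhrf1 was 1.26-fold higher in fibrillar collagen than in Matrigel (log2 difference 0.33 ± 0.063 SE, adjusted p = 0.022) and 1.28-fold higher in non-fibrillar collagen (log2 difference 0.36 ± 0.063 SE, adjusted p = 0.0047). Chaf1a, the large subunit of the factor that deposits histones on new DNA, measured 7.92, 7.74 and 7.77 in fibrillar collagen, 7.84, 7.77 and 7.73 in non-fibrillar collagen and 7.47, 7.63 and 7.48 in Matrigel. Its collagen arrays too lay above all Matrigel arrays, 1.22-fold in fibrillar collagen (log2 difference 0.29 ± 0.062 SE, adjusted p = 0.036). Chaf1b, another subunit of that factor, had 8.38, 8.32 and 8.33 in fibrillar collagen, 8.57, 8.60 and 8.42 in non-fibrillar collagen and 8.27, 8.30 and 8.13 in Matrigel. Here the groups were apart in the order non-fibrillar, fibrillar, Matrigel, and the gene was 1.23-fold higher in non-fibrillar collagen than in Matrigel (log2 difference 0.29 ± 0.061 SE, adjusted p = 0.011). The methylase gene Dnmt1 was at 0.08 ± 0.055 between the collagens and passed in none.

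Both cyclin E genes were lower in fibrillar than non-fibrillar collagen, and the E2F genes did not pass. Of 4 regulators 2 were lower in fibrillar than non-fibrillar collagen, 0 passed in fibrillar collagen against Matrigel (0 at an unadjusted p under 0.05), and 2 were higher in non-fibrillar collagen than in Matrigel. Ccne2, the gene of cyclin E2, measured 7.49, 7.64 and 7.51 in fibrillar collagen, 7.88, 8.12 and 8.23 in non-fibrillar collagen and 7.52, 7.62 and 7.54 in Matrigel. Fibrillar and Matrigel arrays shared one range, and the non-fibrillar arrays, though spread, were all above it. It was 1.44-fold lower in fibrillar than non-fibrillar collagen (log2 difference -0.53 ± 0.094 SE, adjusted p = 0.028), the largest difference of the 46 genes in this comparison. Ccne1, the gene of cyclin E1, had 8.01, 8.03 and 8.03 in fibrillar collagen, 8.22, 8.19 and 8.19 in non-fibrillar collagen and 7.99, 7.92 and 7.93 in Matrigel. Its groups were narrow and apart, though fibrillar replicates 2 and 3 had the identical value. Ccne1 was 1.13-fold lower in fibrillar than non-fibrillar collagen (log2 difference -0.18 ± 0.032 SE, adjusted p = 0.029, and 0.061 with the block). E2f1 was at -0.09 ± 0.060, -0.0035 ± 0.064 and 0.09 ± 0.064 in the 3 comparisons, and E2f2 at -0.04 ± 0.086, -0.02 ± 0.078 and 0.02 ± 0.078, with overlapping groups throughout. E2F proteins are also held in check by binding to the retinoblastoma protein, which RNA levels do not show.

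The position of fibrillar collagen between Matrigel and non-fibrillar collagen varied by gene. Among the 37 genes called in non-fibrillar collagen against Matrigel, the fibrillar mean lay from -50.3% (Slbp) to 114.0% (Chaf1a) of the way from the Matrigel mean to the non-fibrillar mean, with a median of 39.2%. The second Slbp probe set gave 18.0%. It was nearer to Matrigel in 23 genes (62.2%), against 68.5% of the 1345 genes called higher in that comparison, whose median was 32.6%, so the 37 genes lay close to the background. Prim2 (2.28%), Rfc4 (3.65%), Orc6 (6.62%), Pcna (8.17%) and Rfc3 (10.9%) were almost at the Matrigel level. Mcm2, Mcm3, Mcm4, Mcm6 and Mcm7 lay near the middle, from 53.3% to 56.3%, and Cdc45 at 53.1%, while Mcm5 was at 31.9%. Cdc6 (75.2%), Uhrf1 (91.5%), Pole (109.1%) and Chaf1a (114.0%) were near or beyond the non-fibrillar level. These positions are a description, and differences between genes in position were not tested.

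**Figure D4:**
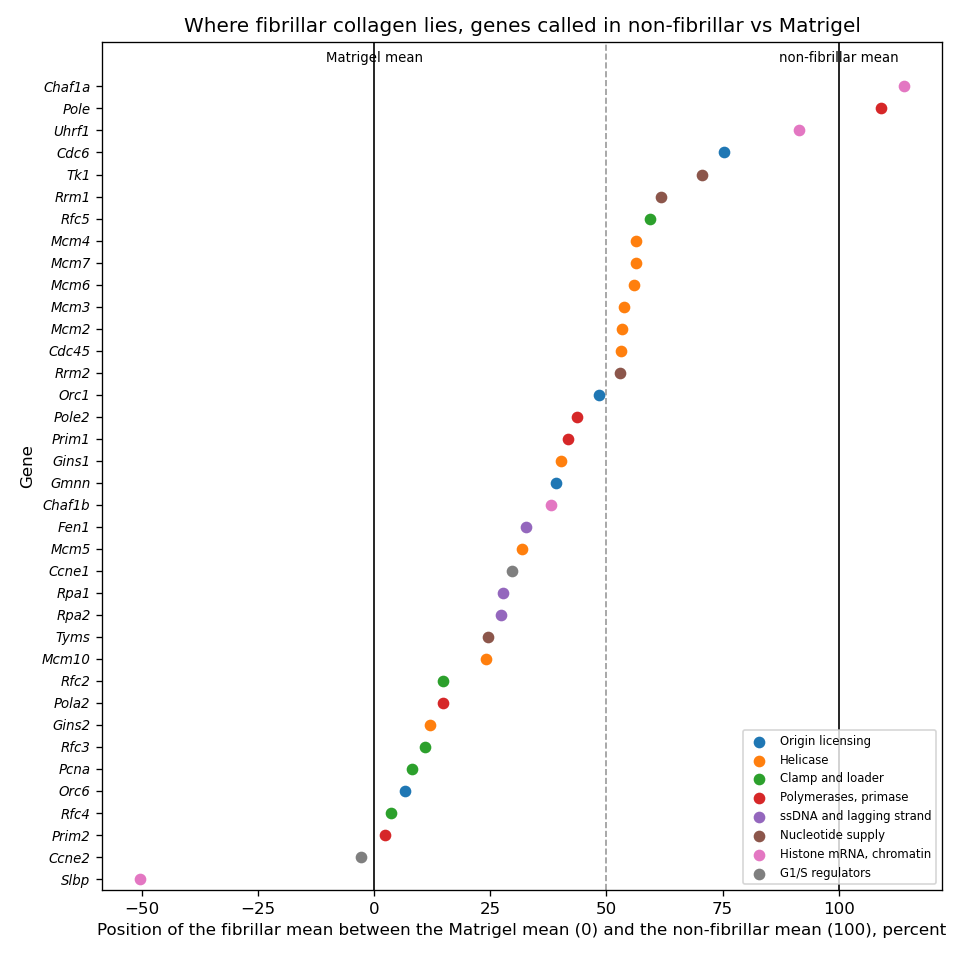
Each point places a gene's fibrillar mean on the span from its Matrigel mean (0%) to its non-fibrillar mean (100%), for the 37 genes higher in non-fibrillar collagen than in Matrigel, coloured by role. Rfc2, Rfc3, Rfc4 and Pcna sit near 0 and Rfc5 past the middle, Mcm2, Mcm3, Mcm4, Mcm6 and Mcm7 lie near the middle with Mcm5 and Mcm10 below it, and Pole and Chaf1a lie beyond 100%.

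E2F matches were found in the promoters of called and uncalled genes. Of the genes with a promoter window, 2 of 10 lower in fibrillar than non-fibrillar collagen held one (Rfc3 and Pole2), as did 4 of 7 higher in fibrillar collagen than in Matrigel (Cdc6, Mcm6, Mcm7 and Uhrf1) and 9 of 29 higher in non-fibrillar collagen than in Matrigel. Among the 9 genes that passed in no comparison 7 held a match, Rfc1 and E2f1 being those without. These shares are small counts and were not tested.

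None of the 14 calls between the collagens was kept in all 6 refits that each left 1 array out. Calls over all genes fell as well, from 1277 to between 150 and 569 in these refits. Of the 14 genes, 6, 2 and 1 kept the call without fibrillar replicate 1, 2 and 3, and 4, 1 and 4 without non-fibrillar replicate 1, 2 and 3. Rfc4 lost it only without fibrillar replicate 3 (adjusted p = 0.0513) and Prim2 only without non-fibrillar replicate 2 (0.0508). Slbp lost it in 3 of the 6 refits (up to 0.0610), Tyms, Rfc3, Pole2, Fen1 and Ccne2 in 5 (up to 0.0622, 0.107, 0.120, 0.143 and 0.116), and Cdc45, Gins2, Rfc2, Rrm1, Rpa2 and Ccne1 in all 6 (up to 0.139, 0.154, 0.122, 0.127, 0.125 and 0.0842). The median difference of the 46 genes stayed between -0.21 and -0.16 in these refits. Of the 8 calls against Matrigel in fibrillar collagen, Rrm1 alone was kept in every refit (adjusted p up to 0.0232). Over all genes these refits called 353 to 513, against 762 with no array left out. Without fibrillar replicate 1, the highest array of that group, Rrm1 was the single call of the 46 and the median was 0.081 log2 units. Cdc6, Mcm6, Cdc45 and Uhrf1 lost the call in 4 of 6 refits and Mcm7, Pole and Chaf1a in 5, with adjusted p up to 0.107. In non-fibrillar collagen against Matrigel the refits called 1814 to 2492 of all genes, against 2755 with no array left out. Of the 37 genes, 25 kept the call in every refit. Gins1, Rrm2 and Pola2 lost it in 5, Mcm10, Pcna and Chaf1a in 4, Mcm3, Rfc3 and Orc6 in 3, Gmnn and Pole in 2 and Slbp in 1, with adjusted p up to 0.150.

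Other genes of replication and the G1/S transition came from 6 further lists, and those that were called mostly went in the same directions. Of 91 measured, 13 were lower and 1 higher in fibrillar than in non-fibrillar collagen (14.3% and 1.10%), 5 were higher and 1 lower in fibrillar collagen than in Matrigel, and 38 were higher and 1 lower in non-fibrillar collagen than in Matrigel (41.8% and 1.10%). Values in brackets for these genes are log2 differences ± SE. Among 18 genes of licensing and firing, Gins4 (-0.30 ± 0.054), Orc4 (-0.36 ± 0.077) and Orc2 (-0.31 ± 0.066) were lower in fibrillar than non-fibrillar collagen. Topbp1, which helps to activate the helicase, was higher in fibrillar collagen than in Matrigel (0.26 ± 0.054). Against Matrigel 9 were higher in non-fibrillar collagen, those with the smallest p being Fbxo5, an inhibitor of the anaphase-promoting complex (0.42 ± 0.068), Topbp1 (0.30 ± 0.054) and Wdhd1 (0.27 ± 0.049). Of 18 further fork genes, Rpa3, the smallest subunit of the single-strand binding protein (-0.66 ± 0.090, 1.58-fold), the polymerase delta subunit Pold4 (-0.37 ± 0.053) and the nuclease Dna2 (-0.25 ± 0.054, adjusted p = 0.047, and 0.059 with the block) were lower in fibrillar than non-fibrillar collagen, 0 passed in fibrillar collagen against Matrigel (1 at an unadjusted p under 0.05), and 4 were higher in non-fibrillar collagen. Dna2 (0.42 ± 0.053), Pold4 (0.41 ± 0.063) and Rpa3 (0.56 ± 0.088) had the smallest p of the 4.

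Other enzymes of nucleotide supply followed. Of 12 measured, 3 were lower in fibrillar than non-fibrillar collagen: the thymidylate kinase Dtymk (-0.32 ± 0.035), the dUTP hydrolase Dut (-0.38 ± 0.053) and the pyrimidine enzyme Umps (-0.29 ± 0.058). The same 3 had the smallest p of the 7 that were higher in non-fibrillar collagen than in Matrigel (0.38 ± 0.049, 0.49 ± 0.056 and 0.38 ± 0.059), and Cad, which starts pyrimidine synthesis, was higher in fibrillar collagen than in Matrigel (0.26 ± 0.044). Of 12 genes of histone supply, 4 were lower in fibrillar than non-fibrillar collagen, among them the histone acetylase Hat1 (-0.41 ± 0.045) and the histone chaperones Asf1a (-0.32 ± 0.048) and Asf1b (-0.21 ± 0.035), 0 passed in fibrillar collagen against Matrigel (2 at an unadjusted p under 0.05), and 6 were higher in non-fibrillar collagen than in Matrigel, those with the smallest p being Asf1b (0.31 ± 0.036), Hat1 (0.51 ± 0.069) and the helicase Hells (0.51 ± 0.074). Of 13 checkpoint and repair genes 0 passed between the collagens (limma, 2 at an unadjusted p under 0.05), the nuclease Exo1 was higher in fibrillar collagen than in Matrigel (0.33 ± 0.056), and 7 were higher in non-fibrillar collagen, with Exo1 (0.48 ± 0.056), the checkpoint kinase Chek1 (0.52 ± 0.080) and the helicase Blm (0.26 ± 0.060) having the smallest p.

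Rb1, the gene of the retinoblastoma protein, ran against the replication genes. It measured 9.08, 9.13 and 9.09 in fibrillar collagen, 8.87, 8.87 and 8.95 in non-fibrillar collagen and 9.28, 9.24 and 9.32 in Matrigel. All 3 groups stood apart, with Matrigel highest and non-fibrillar collagen lowest. Rb1 was higher in fibrillar than in non-fibrillar collagen (0.20 ± 0.039, adjusted p = 0.033, and 0.059 with the replicate block). Against Matrigel it was lower in fibrillar collagen (-0.18 ± 0.041, adjusted p = 0.044, and 0.051 with the block). Non-fibrillar collagen was lower than Matrigel too (-0.39 ± 0.041, adjusted p = 0.00033). The last of these calls was kept whichever array was left out, and the other two were lost in all 6 refits (adjusted p up to 0.111 and 0.120). Rb1 was the 1 gene of 18 G1/S control genes that passed between the collagens. Against Matrigel, E2f8 (0.31 ± 0.064) and cyclin A2, Ccna2 (0.20 ± 0.047), were higher in fibrillar collagen, and Rbl1 (0.34 ± 0.051) and Ccna2 (0.28 ± 0.047) were among 5 higher in non-fibrillar collagen.

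Of the other named genes that passed between the collagens, Dtymk and Hat1 kept the call whichever array was left out (adjusted p up to 0.0487 and 0.0492). Rpa3 and Asf1a lost it in 4 of 6 refits, Pold4, Dna2 and Dut in 5, and Gins4, Orc4, Orc2, Umps and Asf1b in all 6, with adjusted p up to 0.152. Against Matrigel in fibrillar collagen Cad was kept throughout, Exo1 lost the call without Matrigel replicate 2 (0.0544), Topbp1 lost it in 4 refits, E2f8 in 5 and Ccna2 in all 6. In non-fibrillar collagen against Matrigel, Blm lost it in 4 refits and the others named here in none.

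Most mitosis genes were higher in non-fibrillar collagen than in Matrigel, and fewer passed in fibrillar collagen. Of 26 measured, 20 were higher in non-fibrillar and 6 in fibrillar collagen than in Matrigel, with medians of 0.35 and 0.23 log2 units, beside 0.32 and 0.11 for the 46 replication genes. Between the collagens 3 of 26 were lower in fibrillar collagen (11.5%, median -0.12), against 14 of 46 replication genes (30.4%, median -0.18). Whether the lists differ was not tested. Topoisomerase II, Top2a (0.31 ± 0.046), the kinase Aurkb (0.27 ± 0.045) and the motor Kif20a (0.23 ± 0.041) had the smallest p among the genes higher in fibrillar collagen than in Matrigel. Top2a lost the call with the mean of its probe sets (adjusted p = 0.203) and Kif20a without Matrigel replicate 2 (0.0607). The 3 lower in fibrillar than non-fibrillar collagen were Cdk1 (-0.23 ± 0.032), Mad2l1 (-0.38 ± 0.060) and Bub1 (-0.34 ± 0.072), each of which lost the call in 5 of 6 refits.

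**Figure D5:**
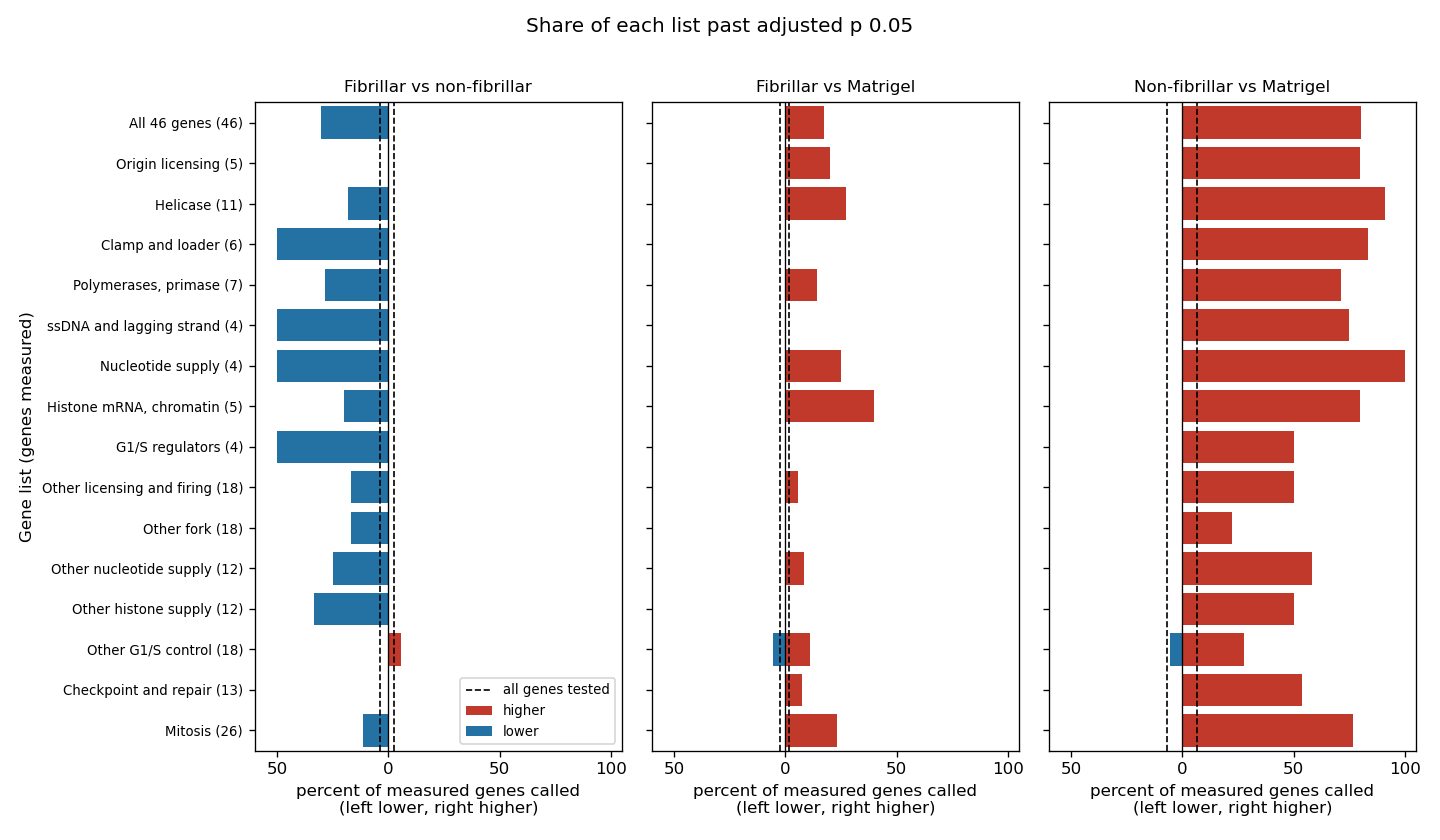
Bars give the percent of measured genes called higher (red, right) or lower (blue, left) in each comparison, for the 46 genes, their 8 roles and 7 other lists, with the number of genes measured in brackets and dashed lines for all genes tested. In fibrillar against non-fibrillar collagen the bars point left, except for other G1/S control. Origin licensing and the checkpoint and repair list have no bar there. In both comparisons with Matrigel bars point mostly right.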

How the data were processed

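Each of the 9 arrays gave one column of the deposited table, with a log2 expression value per probe set. Per the submitters' processing notes, the authors used Affymetrix Power Tools with the RMA method to make these log2 values. Per the labels' protocols, the arrays were hybridized with biotinylated cRNA. RMA quantile-normalizes arrays, so a change shared by most genes can be hidden. Tool versions, the probe set build and the number of RMA runs are not given in the sources that were used. Of 35512 probe sets, 21789 carried a single gene symbol (1621 several, 12102 unlisted) and gave 19938 genes. Differences were fitted with limma 3.58.1 in R 4.3.3 (lmFit, eBayes), two-sided. P-values were adjusted over all genes by Benjamini-Hochberg, and a gene was called under 0.05. Fibrillar against non-fibrillar collagen used its 6 arrays, and the comparisons with Matrigel used all 9. SE is limma's moderated standard error. Each pair of arrays shared 1610 to 2552 exactly identical probe set values, which lower the spread of the genes concerned. Dna2 had 7.17661 in all 3 fibrillar arrays. The effect of such ties on the calls was not tested. The number of arrays, 3 per group, limits the precision. The fit was tested on simulated data.

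The 46 genes, the other lists and the rule for named genes were chosen with earlier results of these data known. Every array value is given for called genes of the 46, at most 4 per role and comparison by smallest p. They are also given for Pcna and for Cdt1, which was called in no comparison. For the other lists, differences are given for up to 3 called genes per comparison, with array values for Rb1. The titles number the replicates, and same-numbered arrays of the collagens deviated together weakly over all genes (r = 0.221, 0.143 and 0.242). Over the 46 genes r was 0.6, 0.11 and 0.379 for replicates 1, 2 and 3. Values from a fit blocked on replicate number therefore stand beside collagen results that it changes, and beside some against Matrigel. Alternatives were another normalization, filters on dim genes, array weights, other priors, other arrays in the fit and each array left out. Promoter windows came from a RefSeq table of build GRCm38.p6, with exact motif letters searched by Python on both strands.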

Additional observations from a re-analysis of the deposited data

How the results depend on the processing

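None of the counts, medians or called genes changed direction under any alternative. Of the 46 genes, at an adjusted p of 0.01 the calls were 2 in fibrillar against non-fibrillar collagen, 1 in fibrillar collagen against Matrigel and 23 in non-fibrillar collagen against Matrigel. Over all genes they were 168, 239 and 1419. Testing only genes above the median level, which held 45 of the 46, called 25 between the collagens, with fewer genes tested. In all it called 2211 genes. A fit of fibrillar collagen and Matrigel on their own 6 arrays called 3, and 460 of all genes. The same kind of fit for non-fibrillar collagen and Matrigel called 32, and 2276 of all genes. Between the collagens, a fit on all 9 arrays called 21, and 1765 of all genes. Leaving out 1 array at a time gave 1 to 7, 1 to 6 and 28 to 34 calls, in the same order of comparisons. Over all genes the same refits called 150 to 569, 353 to 513 and 1814 to 2492. Medians of the 46 genes were -0.2141 to -0.1582, 0.0782 to 0.1285 and 0.2946 to 0.3525 log2 units. The median 0.3525 came without non-fibrillar replicate 3, and the cause was not tested. Over all genes called between the collagens, 42.4% were higher in fibrillar collagen. After quantile normalization again 51.8% of 1378 were higher, with 10 of the 46 called, all lower. This normalization lost Cdc45, Rrm1, Rpa2 and Ccne1.

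With replicate number as a block, 13 genes were called between the collagens (9 of the 14, and Mcm10, Pcna, Orc6 and Prim1). Against Matrigel it called 11 in fibrillar collagen (all 8 kept, and Mcm4, Prim1 and Tk1). In non-fibrillar collagen against Matrigel it called 36 (35 of 37 kept, Rrm2 and Pola2 lost, Pola1 gained). Over all genes it called 1285, 1020 and 3244, against 1277, 762 and 2755 without the block. Against Matrigel, r over all genes was positive too: 0.253, 0.103 and 0.097 for fibrillar and 0.125, 0.045 and 0.135 for non-fibrillar collagen. Over the 46 genes these were 0.265, 0.27 and 0.186, and 0.185, 0.189 and 0.097. Whether replicate numbers pair these arrays was not tested. Single named genes gave 1328 results on the same side of the threshold as reported, 305 that no longer passed and 0 reversed. Alternatives for genes outside the 46 were added after seeing the data.

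Signal over background was not tested, since the table holds no detection calls. With 3 arrays per group, an adjusted p near 0.05 moved across the threshold when 1 array was left out.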
